A study of Mus musculus with 5 samples.

Results

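The growth plate axis described here comprises the genes of Indian hedgehog signalling, the PTHrP receptor and the FGF receptor that acts beside them: Ihh, Pthlh, Ptch1, Smo, Gli1, Gli2, Gli3, Pth1r and Fgfr3. Members were all probe sets whose platform gene symbol is one of these 9 genes. Of the 9 genes, 8 were matched, out of 12393 genes named on the arrays, by 12 of the 22690 probe sets in each of the deposited tables. Pthlh, which encodes the ligand PTHrP, was matched by no probe set and is not analysed here. Ihh, Pth1r, Gli1 and Gli3 had 1 probe set each, and Ptch1, Smo, Fgfr3 and Gli2 had 2 each.

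In the growth plate, chondrocytes that leave the proliferating columns secrete Indian hedgehog. Hedgehog binds Patched 1 and so releases Smoothened, and the signal reaches the Gli transcription factors through the primary cilium. Ihh keeps PTHrP production going near the joint surface, and PTHrP acts through Pth1r on the columns to delay hypertrophy, while Fgfr3 restrains chondrocyte proliferation and represses Ihh. Ptch1 and Gli1 are themselves transcribed in response to Hedgehog and are commonly read as its output. Pth1r is also abundant in osteoblasts, so in a whole joint its message has more than 1 source.

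Tibio-femoral joints of male mice aged 3 months, of a C57/Bl6:129 hybrid background, came from wildtype animals or from mice null for epiphycan (Epyc) together with biglycan (Bgn), 2 small proteoglycans of cartilage and bone matrix. There were 2 wildtype and 3 double-null samples, each a pool of 6 joints from 3 mice on 1 Affymetrix array, and no label says whether the pools shared litters. Both null alleles were present together in every double-null pool, so the loss of one gene cannot be told apart from the loss of the other. The arrays came as 2 tables, called array types here: type A holds wildtype pool 2 and double-null pool 3, and type B holds wildtype pool 1 and double-null pools 1 and 2. Values are MAS5 signals, a probe set's brightness on a linear scale, and signals of different probe sets cannot be set against each other. In pooled whole joints, fewer cells of a type and less RNA per cell cannot be told apart.

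The labels were checked on the targeted genes: the 3 Bgn probe sets lay at log2 differences of -3.48 to -6.00 in the double-null pools (limma adjusted p = 0.00062 to 0.0047), and Epyc read 78.8 and 91.2 in the wildtype pools against 1.29 to 10.8 in the double-null pools (adjusted p = 0.16). Across the arrays the highest of the 27 Bacillus controls, probe sets for bacterial genes that mouse RNA should leave dark, ran from 27.5 to 63.5, and 63.4% of all probe sets exceeded it on every array. Marker genes served as a guide to what the joints held, though a gene of one list can also be expressed by other cell types. Above the controls on every array were 13 of 15 measured cartilage genes, 5 of 5 hypertrophic cartilage genes, 6 of 6 osteoblast and osteocyte genes and 3 of 5 osteoclast genes. The same held for 8 of 8 muscle, 4 of 5 erythroid, 7 of 7 neutrophil, 5 of 5 B cell and 1 of 5 T and NK cell genes, and for 2 of 4 adipocyte, 5 of 5 endothelial, 4 of 5 mural, 2 of 6 skin and 4 of 5 tendon and synovium genes.

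Ihh, Ptch1, Smo, Pth1r, Fgfr3 and Gli1 were all detected in joints at this age, and none of the 8 genes passed the test between genotypes. Of the 12 probe sets, 7, from these 6 genes, exceeded the highest Bacillus control of the same array on all 5 arrays, and 7 of the 12 passed a filter at the 40th percentile of mean signal. The probe sets of Gli2 and Gli3, the second probe set of Ptch1 and the second of Fgfr3 did not. By limma, 0 of the 12 probe sets passed an adjusted p of 0.05 over all 22626 tested probe sets, where 0.0265% of all passed. At an unadjusted p under 0.05 there were also 0 of 12, against 5.35% of all probe sets. The smallest unadjusted p, 0.114, belonged to Pth1r. Gli1 was the only one of the 12 with every double-null pool below both wildtype pools, an arrangement held by 9.93% of all probe sets, and no member had every double-null pool above both, as 9.24% of all did.

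**Figure D1:**
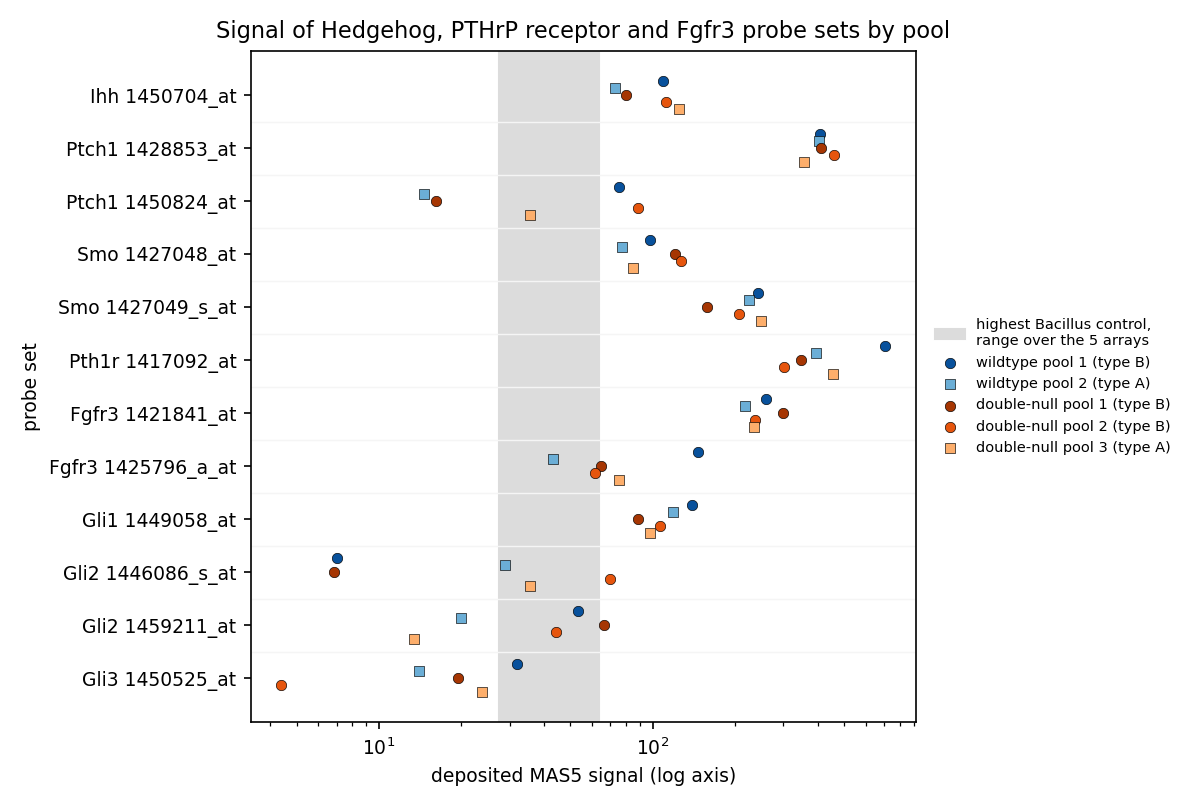
Deposited MAS5 signal (log axis) of each of the 12 probe sets, 1 point per pool, circles for array type B and squares for array type A. The grey band spans the highest Bacillus control of each array, 27.5 to 63.5. The points of Ihh, the first Ptch1 probe set, both Smo probe sets, Pth1r, the first Fgfr3 probe set and Gli1 lie right of the band in all 5 pools.

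Ihh, the ligand, had the probe set 1450704_at. Wildtype pools 1 and 2 read 109 and 72.8, and double-null pools 1, 2 and 3 read 79.6, 111 and 125. Each value was above the controls. The lowest reading was wildtype pool 2 and the highest double-null pool 3, the 2 arrays of type A, with the other 3 pools between them, so the genotypes overlapped. Mean signals were 90.9 ± 25.6 (SD, n = 2) and 105.2 ± 23.1 (n = 3). Differences between genotypes are given as log2 differences, double-null minus wildtype, on quantile-normalised log2(signal + 32) with array type as a term. This scale understates the change of dim probe sets. For Ihh the difference was 0.20 ± 0.24 (SE), or 1.15-fold with a 95% interval of 0.770 to 1.72 (limma adjusted p = 0.987). It was 0.56 within array type A and -0.06 within type B, so the tables, each with 1 wildtype pool, did not give 1 direction.

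Ptch1, the Hedgehog receptor and also a gene that Hedgehog signalling induces, had the steadiest reading of the axis. Its first probe set, 1428853_at, read 407 and 405 in the wildtype pools and 409.7, 460.3 and 357 in double-null pools 1 to 3. The wildtype values lie inside the double-null range. The mean was 406 ± 1.31 against 409 ± 51.6, a log2 difference of -0.02 ± 0.16. The 95% interval, 0.760- to 1.28-fold, leaves room for a change of up to about that size in either direction (adjusted p = 0.997). A second Ptch1 probe set, 1450824_at, was near background. It read 75.1 and 14.7 in the wildtype pools and 16.2, 88.3 and 35.6 in the double-null pools, above the controls on 3 of 5 arrays. The high and low readings fell in both genotypes. Its log2 difference of -0.03 ± 0.40 has an interval of 0.501- to 1.91-fold, much wider than that of the first (adjusted p = 0.998).

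Smo encodes Smoothened, the membrane protein that passes the signal on once Patched 1 is occupied. Its 2 probe sets are annotated with the same source sequence and gave opposite signs. The probe set 1427048_at read 97.8 and 77.0 in the wildtype pools and 120.2, 127 and 84.7 in the double-null pools. Double-null pools 1 and 2 were highest, and double-null pool 3 lay between the wildtype pools. The log2 difference was 0.23 ± 0.21, or 1.17-fold with an interval of 0.829 to 1.65 (adjusted p = 0.968). The other, 1427049_s_at, carries the suffix Affymetrix gives to probe sets whose probes may also match other genes. It read 242 and 225 in the wildtype pools and 157, 206 and 248 in the double-null pools, so here double-null pools 1 and 2 were lowest and pool 3 highest. The log2 difference was -0.13 ± 0.20, or 0.916-fold with an interval of 0.657 to 1.28 (adjusted p = 0.990). Both intervals include no change, and the direction for Smo is not settled by these probe sets.

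Gli1, a transcription factor that both carries out and amplifies the Hedgehog response, was the member with the groups apart. Its probe set 1449058_at read 139 and 119 in the wildtype pools and 88.5, 106 and 97.8 in double-null pools 1 to 3. The highest double-null pool lay below the lower wildtype pool, on the deposited signals and on the normalised scale. Mean signals were 129 ± 14.2 (n = 2) and 97.6 ± 8.97 (n = 3). The log2 difference was -0.28 ± 0.20, or 0.822-fold with a 95% interval of 0.589 to 1.15, which includes 1 (limma unadjusted p = 0.203, adjusted p = 0.944). An exact permutation test of 2 against 3 pools has 10 arrangements and cannot go below 0.1. Array type A gave -0.24 and type B gave -0.32, and over all 15 alternative settings the value ran from -0.36 to -0.17. Groups that are apart on the normalised scale give the same sign within each type, so the shared sign is no separate check. Ptch1, the other Hedgehog-induced member, was at -0.17 within type A and 0.09 within type B. Hhip, another gene that Hedgehog induces and a decoy for its ligands, read 52.8 and 44.2 in the wildtype pools and 40.8, 36.0 and 55.1 in the double-null pools, a log2 difference of -0.03. Neither Ptch1 nor Hhip had its groups apart. The Hhip reading of 36.0, on double-null pool 2, was below that array's highest control, 63.5. In the other pools Hhip exceeded the highest control of its array. With signals this near background, the overlap for Hhip does not show whether its level was unchanged.

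Gli2, the main activator among the Gli proteins, and Gli3, which acts largely as a repressor when Hedgehog is absent, were at or near background. The 2 Gli2 probe sets share a source sequence. The one with the cross-matching suffix, 1446086_s_at, read 7.04 and 28.9 in the wildtype pools and 6.85, 70.0 and 35.7 in the double-null pools, above the controls on double-null pools 2 and 3. The other, 1459211_at, read 53.2 and 20.0, and 66.3, 44.4 and 13.4, above them on wildtype pool 1 and double-null pool 1. The pair did not rank the pools alike: double-null pool 1 was lowest on the first and highest on the second. Their log2 differences were 0.46 ± 0.39 and -0.03 ± 0.23 (adjusted p = 0.957 and 0.997). Gli3, on 1450525_at, read 32 and 14.0 against 19.4, 4.40 and 23.8, below the highest control on each of the 5 arrays. No level and no fold change can be read from it.

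Pth1r, the shared receptor of PTHrP and parathyroid hormone, differed most between pools among the 7 probe sets above the controls. Its probe set 1417092_at gave 707 for wildtype pool 1 and 395 for wildtype pool 2. Double-null pools 1, 2 and 3 gave 349, 301 and 454. Wildtype pool 1 stood above all others, while wildtype pool 2 lay inside the double-null range. Mean signals were 551 ± 221 (n = 2) and 368 ± 77.9 (n = 3). The log2 difference was -0.52 ± 0.28, or 0.698-fold with an interval of 0.436 to 1.12 (limma unadjusted p = 0.114, adjusted p = 0.92). Within array type B it was -1.05, and within type A it was 0.19. The fit without wildtype pool 1 gave the type A value, 0.19, again. Type B then has no wildtype pool, so this is no separate check. Double-null pools 1 and 2 read below wildtype pool 2 as well, and double-null pool 3 above it. The wildtype pools differed from each other by 0.81 on the log2 scale, more than the 0.54 spanned by the 3 double-null pools.

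Fgfr3, the receptor tyrosine kinase that slows growth plate chondrocytes, had a steady and an unsteady probe set. On 1421841_at it read 259 and 217 in the wildtype pools and 299.5, 235 and 234 in the double-null pools. The genotypes overlapped, with wildtype pool 2 lowest and double-null pool 1 highest. The log2 difference was 0.08 ± 0.18, or 1.05-fold with an interval of 0.779 to 1.43 (adjusted p = 0.993) and had 1 sign in both tables, 0.09 for type A and 0.06 for type B. The probe set 1425796_a_at, whose suffix marks a match to several transcripts of the gene, read 147 and 43.3, and 64.4, 61.4 and 75.0. Wildtype pool 1 was again far above the rest, and double-null pool 2 was below its array's highest control. The difference of -0.27 ± 0.33 (adjusted p = 0.988) split into 0.48 for type A and -0.83 for type B. The fit without wildtype pool 1 gave the type A value, 0.48, again.

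**Figure D2:**
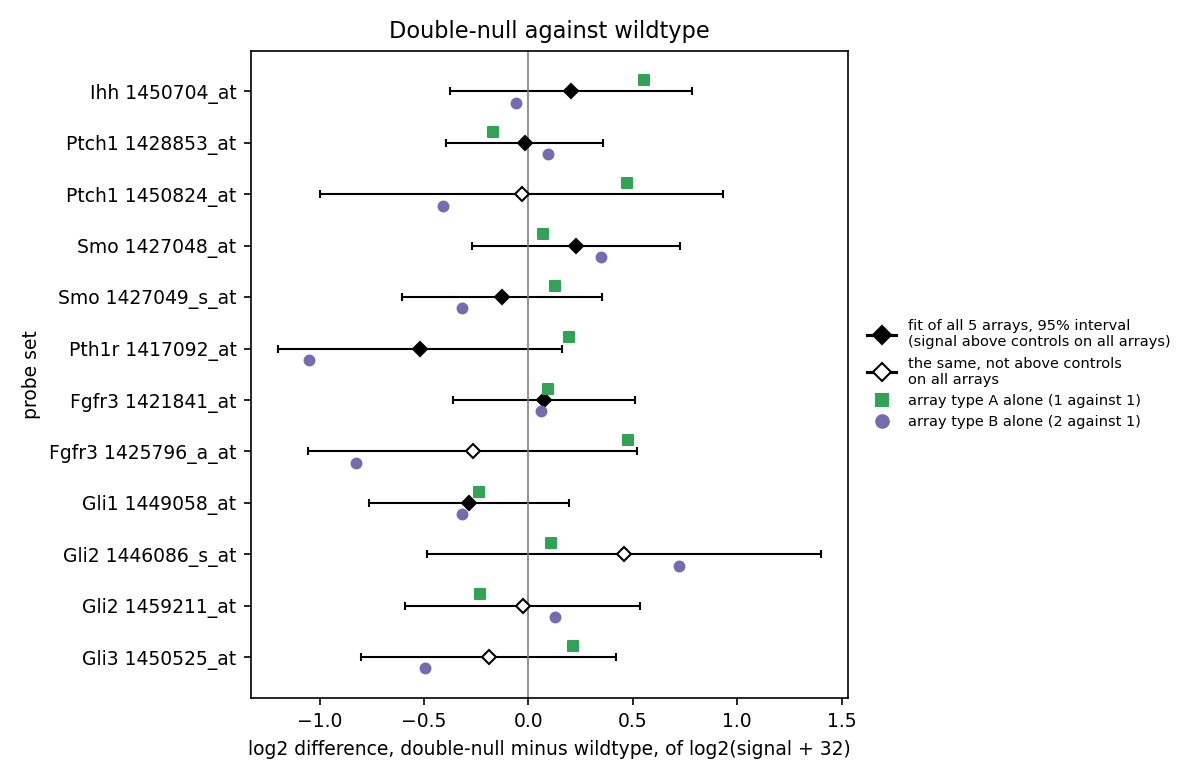
Log2 difference, double-null minus wildtype, of each probe set: diamonds with 95% intervals from the fit of all 5 arrays (open where the signal was not above the controls on every array), green squares for array type A alone and purple circles for type B alone. Every interval includes 0, and the squares and circles lie on opposite sides of 0 for 8 of the 12 probe sets, Pth1r with the largest gap among those above the controls.

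The array types gave the same sign for 4 of the 12 probe sets (Gli1, the first Fgfr3, the first-named Smo and the first-named Gli2 probe set), and for 3 of the 7 above the controls, against 47.1% of all 14352 probe sets above the controls. Type A holds 1 pool of each genotype and allows no test. Type B alone, with 1 wildtype and 2 double-null pools, left 1 residual degree of freedom, and in a limma fit of it 0 of the 12 passed (smallest adjusted p = 0.595), with 2 of 12 at an unadjusted p under 0.05, Pth1r and the second Fgfr3 probe set, beside 7.97% of all probe sets. Past 0.5 in size on the log2 scale were 1 of the 12 on type A (Ihh, higher), against 14.4% of all probe sets, and 3 of the 12 on type B (Pth1r and the second Fgfr3 probe set, lower, and the Gli2 probe set 1446086_s_at, higher), against 15.2% of all. The median difference of the 12 was -0.03 and that of the 7 above the controls was -0.02, beside 0.00 for all probe sets.

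The 2 wildtype pools differed from each other in a way the members shared. Wildtype pool 1 read above wildtype pool 2 on 11 of the 12 member probe sets and on all 7 above the controls, which ran from 0.02 for Ptch1 to 0.81 for Pth1r on the normalised log2 scale. Over all 14352 probe sets above the controls it did so for 51.6%. On the same normalised scale, wildtype pool 1 was above pool 2 for 14 of 15 cartilage genes (median difference 0.41), 5 of 5 hypertrophic genes (0.17) and 5 of 5 osteoclast genes (0.53). For osteoblast and osteocyte genes it was 4 of 6, with a median of 0.10. Among marrow lists 4 of 7 neutrophil genes (0.03), 3 of 5 B cell genes (0.09) and 2 of 5 erythroid genes (-0.18) were higher in wildtype pool 1. Muscle went the other way, with 1 of 8 genes higher and a median of -0.92.

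Sums of deposited signals, which follow the brightest genes, gave a wider gap for some lists. The 15 cartilage genes summed to 19682 for wildtype pool 1, to 10137 for wildtype pool 2 and to 11575 to 13570 for the double-null pools. The 5 hypertrophic genes summed to 7945 and 6294, against 7299 to 7666, and the 5 osteoclast genes to 12527 and 7498, against 7110 to 7979. The 6 osteoblast and osteocyte genes summed to 20457 and 12543, against 12926 to 18262, most of it the collagen gene Col1a1 at 18916 and 11160. The 7 neutrophil genes summed to 123308 and 76779, with 76539 to 108580 in the double-null pools. The brightest signal of the whole array was also highest on wildtype pool 1, at 26173, and was 15941 on wildtype pool 2. For 5 B cell genes the sums were 2737 and 2410, with 1929 to 2548, and for 5 erythroid genes 15021 and 13208, with 15059 to 15239, so wildtype pool 1 was highest for the B cell sum and below all 3 double-null pools for the erythroid sum. Muscle sums were 45979 and 54128, with 27847 to 65145 in the double-null pools.

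Between genotypes 0 genes of the marker lists passed the test by limma, and the values of some lists lay mostly to one side. Cartilage genes were lower in the double-null pools for 11 of 15, with a median log2 difference of -0.29, close to the -0.28 of Gli1, and 4 of them, Col9a1, Col9a2, Sox5 and Cnmd, had every double-null pool below both wildtype pools, as Gli1 and 9.93% of all probe sets did. The cartilage median was 0.17 within array type A and -0.40 within type B. Gli1 was below 0 in both types, and so were Col9a1, Col9a2, Sox5 and Cnmd, as follows where groups are apart. Osteoclast genes, 3 of 5 above the controls on every array, were lower for 5 of 5, with a median of -0.28. Neutrophil genes were lower for 6 of 7, with a median of -0.08. Quantile normalisation gives the brightest probe sets nearly the same values on every array. The signs of S100a8 and S100a9, at 0.0048 and -0.0048, therefore follow rank order and are not a readout of neutrophil content. Mural genes were higher for 5 of 5 (median 0.10), skin genes for 5 of 6 (0.15) and hypertrophic genes for 4 of 5 (0.02). The hypertrophic gene Col10a1 read 569 and 188 in the wildtype pools and 482, 379 and 636 in the double-null pools. Its difference was 0.48 ± 0.43 (limma adjusted p = 0.965), with 1.65 within array type A and -0.40 within type B. Tendon and synovium genes were higher for 5 of 5, with a median of 0.57. That median is the value of Scx, which was above the controls on 2 of 5 arrays. Fmod, Prg4, Thbs4 and Tnmd were above them on every array, with Fmod at 0.17 and Prg4 at 0.28. Among these Thbs4, a tendon matrix gene, read 279 and 352 in the wildtype pools and 684, 675 and 625 in the double-null pools, at 1.02 ± 0.16 (limma adjusted p = 0.333), and Tnmd, encoding tenomodulin, was at 1.03 ± 0.23 (adjusted p = 0.573). The part of tissue makeup in the values of Pth1r, Gli1 and Fgfr3 was not tested, and neither was that of array type, which also separates the wildtype pools.

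**Figure D3:**
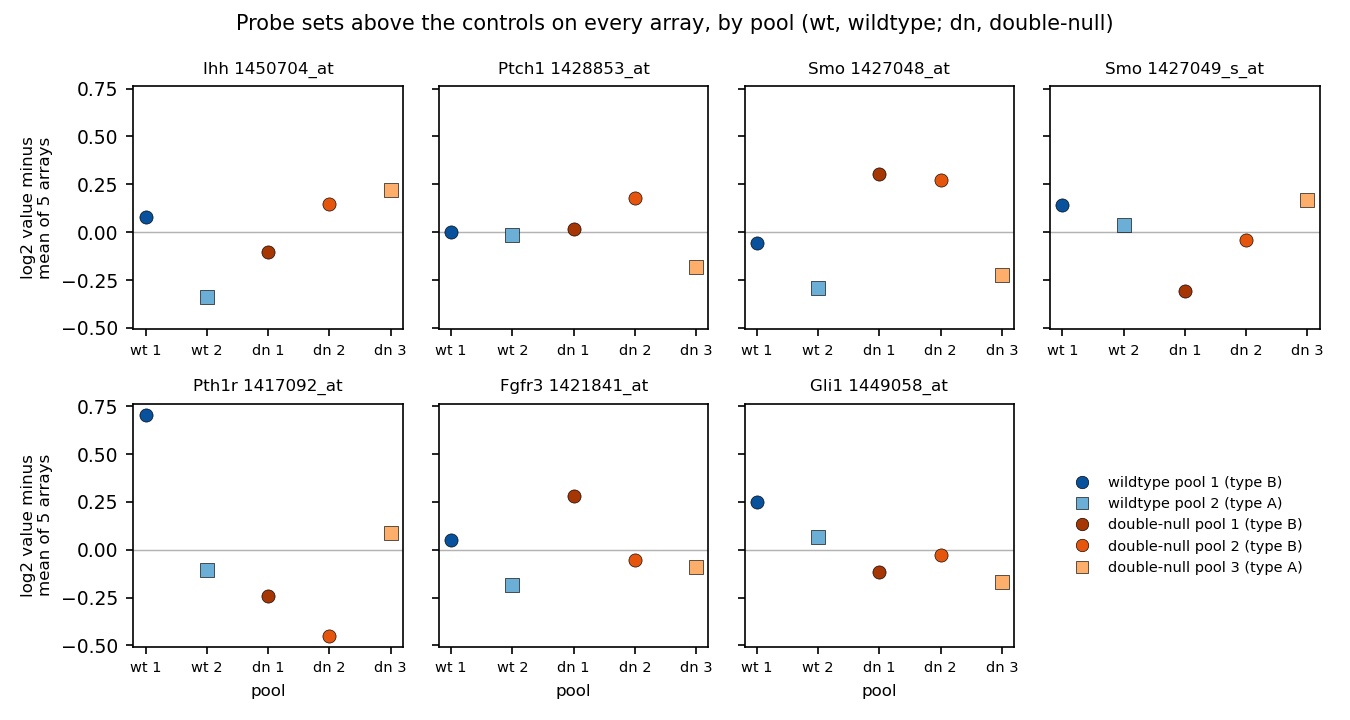
Normalised log2 value of each of the 7 probe sets above the controls, minus its mean over the 5 arrays, by pool (wt, wildtype; dn, double-null). Gli1 is the panel in which both wildtype points lie above all 3 double-null points, and Pth1r the one in which wildtype pool 1 stands farthest from the rest.

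**Figure D4:**
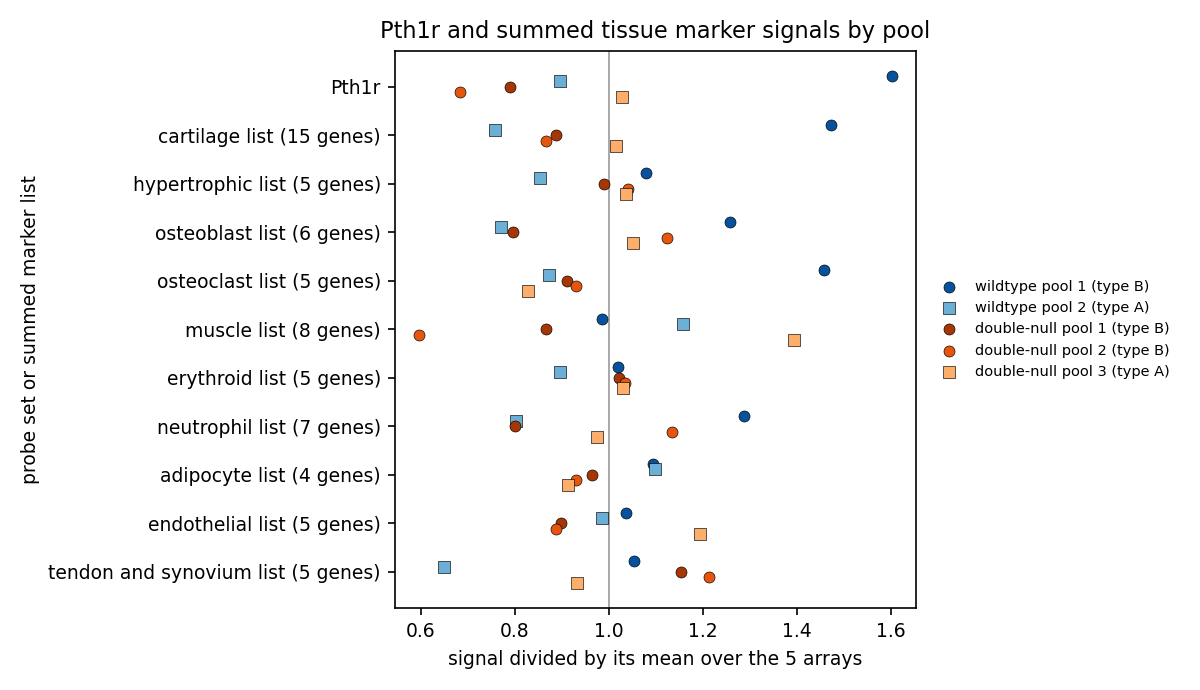
Deposited signal of Pth1r and summed deposited signal of 10 tissue marker lists in each pool, divided by the mean over the 5 arrays. Wildtype pool 1 lies farthest right for Pth1r and for the cartilage, hypertrophic, osteoblast, osteoclast and neutrophil sums, and double-null pool 3 lies farthest right for muscle.

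The 4 lists of related genes placed the members in their pathways, with each gene represented by its brightest probe set. Of 79 listed genes 62 were measured and 42 were above the controls on every array. By limma 0 passed the threshold in either direction. At an unadjusted p under 0.05 there were 3 of 62, 2 higher and 1 lower, beside 5.35% of all probe sets. Of these, Dhh and Fgf9 were above the controls on 1 and 2 of 5 arrays. Groups were apart for 4 higher and 5 lower of the 62, beside 9.24% and 9.93% of all probe sets. The median difference over the 62 genes was -0.03.

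Among 20 measured Hedgehog genes, 8 lay higher and 12 lower, with a median of -0.02, and 0 passed. Csnk1a1, encoding a casein kinase 1 that phosphorylates Gli proteins, read 1002 and 1109 in the wildtype pools and 1562, 1403 and 1235 in double-null pools 1 to 3. Every double-null pool was above both wildtype pools, by 0.35 ± 0.14 (unadjusted p = 0.0407, adjusted p = 0.913), and its other probe sets were at 0.14 and 0.27. Arrb2, encoding beta-arrestin 2, which helps Smoothened reach the cilium, read 830.3 and 980.1 against 792, 493 and 768, at -0.39 ± 0.20 (adjusted p = 0.92). Every double-null pool was below both wildtype pools. Its other probe set, above the controls on all 5 arrays, was at -0.38 (limma adjusted p = 0.887). The other Hedgehog ligands were at background: Dhh exceeded the controls on double-null pool 3 alone (67.7, with 12.2 to 22.3 in the other pools), and Shh on wildtype pool 1 alone (38.8, with 2.66 to 17.0 in the others). Their differences of 0.61 and -0.40 (adjusted p = 0.913 and 0.919) come from signals above the controls in 1 pool each and are not sizes of a change. The Hedgehog co-receptor gene Cdon was below the controls on every array.

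Cilium transport genes, which carry Smoothened and the Gli proteins along the cilium, lay higher for 2 and lower for 6 of 8 measured genes, with a median of -0.07, and 0 passed. Ift140 read 946 and 941 in the wildtype pools and 906, 689 and 885 in the double-null pools, each below both wildtype values, at -0.20 ± 0.16 (adjusted p = 0.952). Ift172 read 116 and 111 against 86.8, 42.6 and 94.6, at -0.41 ± 0.30 (adjusted p = 0.948). Its lowest reading, on double-null pool 2, was below that array's highest control, 63.5. The kinesin gene Kif3b was at -0.14 and Ift57 at 0.10, both with overlapping groups. Kif3b has 3 further probe sets, each above the controls on every array, with differences of -0.12, -0.11 and -0.66 (adjusted p = 0.879 for the last).

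Of 15 measured genes of PTHrP signalling, from the G proteins to cell cycle and hypertrophy regulators, 8 lay higher and 7 lower with a median of 0.00, and 0 passed. Cdkn1c, encoding the cyclin-dependent kinase inhibitor p57, whose level PTHrP is known to hold down in the growth plate, read 81.1 and 100.2 in the wildtype pools and 125, 109 and 140.3 in the double-null pools. All 3 double-null values were above both wildtype values, by 0.43 ± 0.21 (adjusted p = 0.919). Mef2c, a driver of hypertrophy that is also expressed in muscle and B cells, read 1065 and 2019 against 825, 1173 and 1361, at -0.33 ± 0.20, while 2 of its 4 other probe sets lay slightly above 0, at 0.01 and 0.15. Bcl2, a survival gene, was at -0.31 with overlapping groups, and Gna11, a G protein subunit gene, was at 0.23. Pth and Nkx3-2 were below the controls on every array.

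The list around Fgfr3 joined FGF ligands, receptors and feedback genes with the C-type natriuretic peptide genes that oppose Fgfr3. Of 19 measured genes 8 lay higher and 11 lower, with a median of -0.01, and 0 passed. Fgf9, a ligand of Fgfr3, read 70.8 and 50.7 in the wildtype pools and 26, 23.6 and 25.8 in the double-null pools. The wildtype values were above their arrays' highest controls and the double-null values below theirs, so the double-null level is only a bound and the fitted size depends on the added constant, from -1.21 to -0.29 over the alternatives. With the constant used here it was -0.68 (limma unadjusted p = 0.0113, adjusted p = 0.790), which is not a size of a change. Fgf2 and Fgf18 were below the controls on every array. Cdkn1a, a cell cycle inhibitor gene that Fgfr3 signalling is known to raise, read 346 and 186 against 359, 340.2 and 365, at 0.39 ± 0.23 (adjusted p = 0.92). It was at 0.88 within array type A and 0.03 within type B. Its second probe set, above the controls on 1 array, was at -0.14. Npr2, the receptor of C-type natriuretic peptide, was at -0.26 and the clearance receptor gene Npr3, above the controls on 3 of 5 arrays, at -0.25.

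**Figure D5:**
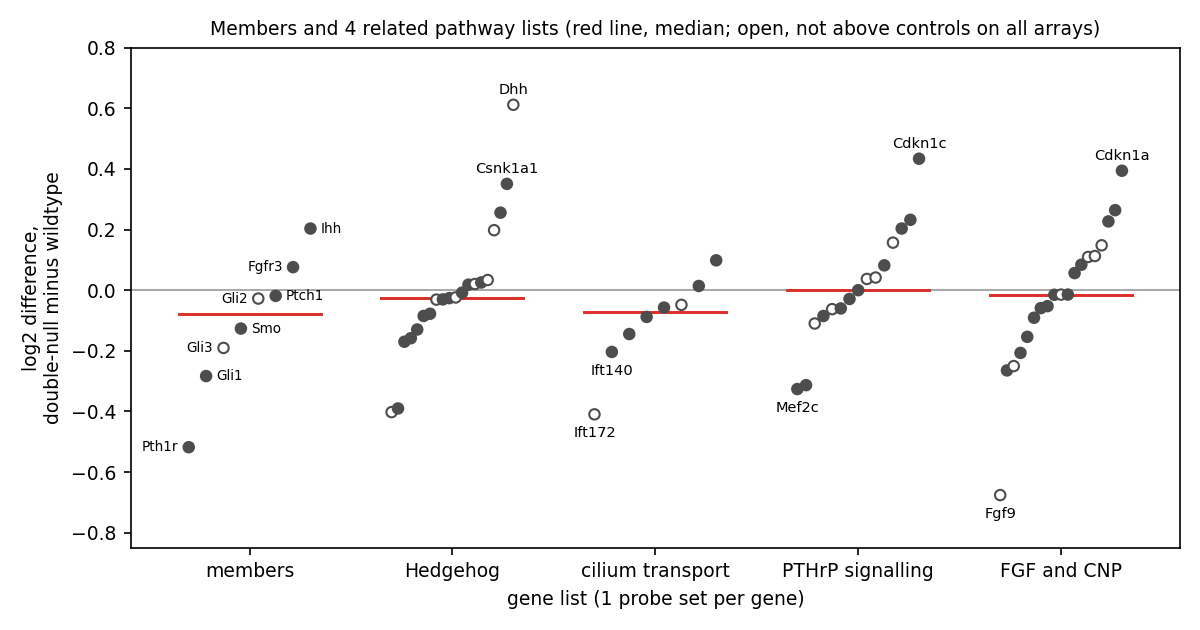
Log2 difference, double-null minus wildtype, of the 8 members (brightest probe set of each) and of the genes in 4 related lists, in rising order within a list. Red lines are medians (-0.08 for the members) and open circles are genes not above the controls on every array; the outermost points, Fgf9 and Dhh, are open.

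Pth1r and the Smo probe set 1427048_at varied most between pools among the members above the controls. The genes whose pattern over the 5 arrays was most like that of Pth1r, out of 8522, were Spi1, Prrc2a and Gpsm3, with root mean square distances of 0.089, 0.094 and 0.11 on the centred log2 scale. For Smo they were Myl12a, Prkg2 and Mob1b, at 0.027, 0.028 and 0.036. Likeness over so few arrays is a description of these pools.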

How the data were processed

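The deposited values are MAS5 signal intensities on a linear scale, per the submitters' processing notes, and no label gives the MAS5 version or scaling target. Probe sets were named from the platform annotation, with symbols brought up to date by Entrez number from the RefSeq gene table of GRCm38.p6. Members and gene lists were chosen with earlier results of these data known. Signals were transformed as log2(signal + 32), quantile normalised over the 5 arrays and fitted for all 22626 probe sets other than array controls with limma 3.58.1 (R 4.3.3; lmFit, then eBayes with its trend option; two-sided). Array type was an additive term, which left 2 residual degrees of freedom, and p-values were adjusted by Benjamini-Hochberg and called at 0.05. No intensity filter was used, so that every member has a value. Means ± SD are of deposited signals. The text names all members, up to 4 genes with the smallest p per pathway list, and 3 nearest patterns for each of the 2 most variable members. Other genes (Hhip, Pth, Nkx3-2, Cdon, Fgf2, Fgf18, the marker genes Col1a1, Col9a1, Col9a2, Col10a1, Sox5, Cnmd, S100a8, S100a9, Scx, Fmod, Prg4, Thbs4 and Tnmd, and Epyc and Bgn as a check) were added after their values were seen. Alternatives were other scalings, pseudocounts and filters, 1 probe set per gene, no trend, no array-type term, type B alone, a replicate block, other background limits and each array left out. The number of arrays limits the precision.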

Additional observations from a re-analysis of the deposited data

How the results depend on the processing

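Under all 15 alternatives 0 of the member probe sets and 0 of the pathway genes passed. The filter at the 40th percentile kept 7 of the 12 member probe sets and 43 of the 62 pathway genes for testing. With 1 filtered probe set per gene, 5 and 41 were kept. The smallest adjusted p of a member was never below 0.595 (limma). Over all tested probe sets 6 passed in the fit reported, with 0 to 18 under the alternatives: 18 with the filter at the 40th percentile, 9 with 1 filtered probe set per gene, 3 with the replicate block, and 0 on array type B alone and when either wildtype pool or double-null pool 3 was dropped. The count of member probe sets above the controls was 7, and 11 if 1 array sufficed; it was 7 to 8 without single arrays.

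Apart from dropped pools, sign changes were limited to Ptch1, the Gli2 probe set 1459211_at, Ihh and Gna11, and the cause was not tested. The first Ptch1 probe set was at 0.015 with median centring, 0.0093 without the array-type term, 0.095 on type B alone and 0.10 with the replicate block. The second was at 0.018 with a pseudocount of 1, 0.075 without the array-type term and 0.16 with the block. The Gli2 probe set 1459211_at was at 0.0040 with the larger pseudocount, 0.12 without the array-type term, 0.13 on type B alone and 0.46 with the block. Ihh was at -0.060 on type B alone, and Gna11 at -0.059 with the block. Deviations from the group mean of wildtype and double-null pool 1 correlated at 0.0074 over probe sets, and those of pools 2 at -0.11. With 2 wildtype pools, their deviations mirror each other, so these are not separate values. They cannot settle whether the replicate numbers pair the pools.

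Without single pools the values ran from -1.06 to 0.19 for Pth1r, -0.061 to 0.56 for Ihh, -0.17 to 0.10 and -0.41 to 0.47 for Ptch1, -0.32 to 0.13 for Smo 1427049_s_at, -0.0041 to 0.16 and -0.83 to 0.48 for Fgfr3, -0.23 to 0.13 for Gli2 1459211_at, -0.49 to 0.21 for Gli3, -0.42 to 0.21 for Kif3b and -0.50 to 0.046 for Npr2, each with a turn of sign. Gli1 stayed between -0.32 and -0.24, Smo 1427048_at between 0.07 and 0.35 and Gli2 1446086_s_at between 0.08 and 0.76. For Gli1, whose groups were apart, the steady sign is no separate check. Dropping either array of type A repeats type B alone, since the fit then passes through the remaining one, and is no separate check. Dropping wildtype pool 1 likewise repeats type A alone, since type B then has no wildtype pool. The turns of sign of Pth1r, Smo 1427049_s_at, Fgfr3 1425796_a_at, Kif3b and Npr2 came only there. They restate the split between array types.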
